A study of Saccharomyces cerevisiae with 14 samples.

Results

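The transcriptome of M2 nsf1∆ was followed over a whole wine fermentation, from 24 h after inoculation to the point at which 85% of the sugars were fermented. M2 is an industrial diploid wine strain of Saccharomyces cerevisiae, and in the mutant the NSF1 gene (YPL230W, also called USV1) is replaced on both homologues by a kanMX cassette. NSF1 encodes a zinc finger transcription factor of the stress response. The comparison was fixed by the sample labels and used 5 of the 14 arrays of the series, 2 of nsf1∆ at 24 h and 3 of nsf1∆ at 85%. A further 2 nsf1∆ arrays, at 20% fermented, show the course between both ends, and the 7 arrays of M2 at the same points (2, 2 and 3) served as the reference. Both strains fermented the same sterile-filtered Riesling must at 18 °C without shaking and without any further treatment. The arrays at 24 h share an hour and those at 20% and 85% share a degree of fermentation, which the labels give as percent of total glucose. The labels call the arrays of a group biological replicates. Which flask each array came from is not given, so the p-values measure the spread between these samples, part of which may be technical.

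During a fermentation, yeast first grows on must that is rich in glucose, fructose and amino acids, and then spends most of the process in a non-growing state while ethanol accumulates and nitrogen, vitamins, sterols and oxygen run short. Growing cells devote most of their transcription to ribosomes and amino acid synthesis. Cells that leave growth express chaperones, hydrophilins and genes for the use of poor carbon sources, most of which are repressed by glucose. Anaerobic growth in addition calls for a set of cell wall mannoproteins of the PAU, TIR and DAN families.

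The values are log2 intensities per probe set, the group of oligonucleotides that reads a gene on the array. RMA gave every array nearly the same overall distribution, with medians of the S. cerevisiae probe sets between 8.87 and 8.95, so that a change is a change relative to all other genes of the array. In such bulk samples fewer cells of a kind and less RNA per cell cannot be told apart. The array also carries probe sets for genes of Schizosaccharomyces pombe, which had a median of 3.06 and a 95th percentile of 3.62 and were used as a measure of background. NSF1 itself read 2.95 and 3.58 in nsf1∆ at 24 h, 3.52 and 4.28 at 20%, and 3.63, 3.95 and 5.90 at 85%. In M2 it read 9.10 and 8.92 at 24 h and 13.12, 12.90 and 13.19 at 85%, far above every mutant array. Replicate 3 of nsf1∆ at 85% stood apart for NSF1 from the other nsf1∆ arrays, though it stayed far below every M2 array of that stage. The change of NSF1 within nsf1∆ (log2 change 1.23, SE 0.50, limma adjusted p = 0.040) no longer passed without that array (0.53, limma adjusted p = 0.116).

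Most of the transcriptome differed between both ends of the fermentation in nsf1∆. Of 5498 S. cerevisiae probe sets, 2035 (37%) were higher at 85% than at 24 h and 1979 (36%) were lower (limma, Benjamini-Hochberg adjusted p below 0.05). A change of at least 2-fold was reached by 1032 of the higher (18.8% of all probe sets) and by 1016 of the lower (18.5%). At least 4-fold changes were seen for 298 higher (5.42%) and 274 lower probe sets (4.98%). The 3 arrays at 85% lay entirely above both arrays at 24 h for 2204 probe sets (40.1%) and entirely below them for 2125 (38.7%). The median change over all probe sets was 0.02 and the median SE 0.15 on the log2 scale. Since 73% of all probe sets were called, a list of genes in which 37% rose and 36% fell is like the rest of the genome, and each count below is to be read against these shares.

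The largest rise belonged to MCH5, which encodes the plasma membrane transporter of riboflavin. MCH5 read 6.50 and 6.43 at 24 h, 7.29 and 7.21 at 20% and then 12.51, 12.50 and 12.78 at 85%, a 70.2-fold rise (log2 change 6.13, SE 0.20, limma adjusted p = 2.3e-10). RDH54, a DNA translocase of recombination, read 6.28 and 6.25 at 24 h and 12.21, 12.25 and 12.36 at 85%, a 64.2-fold rise (6.01, SE 0.17, limma adjusted p = 8.6e-11). For both genes the arrays of each stage lay close together, and the 20% arrays were near the 24 h level.

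The next ranks held genes of varied roles. SPS1, a protein kinase needed for spore wall formation, went from 3.84 and 3.59 to 9.11, 9.12 and 9.37, and so from near background to a clear signal. MFA2, one of the genes of the a-factor mating pheromone, read 4.67 and 4.20 at 24 h and 8.30, 9.67 and 9.52 at 85%, with replicate 1 the lowest of the later arrays but far above the early ones. SLD2, needed to initiate DNA replication, rose from 5.41 and 5.28 to 9.85, 10.67 and 10.72 (log2 change 5.07, SE 0.25). KCC4, a kinase of the septin ring at the bud neck, rose from 5.07 and 5.11 to 9.54, 9.76 and 9.54 (4.52, SE 0.21).

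SRT1, a cis-prenyltransferase of dolichol synthesis, read 4.48 and 4.46 at 24 h and 8.91, 9.75 and 9.97 at 85%. PES4, which resembles poly(A)-binding proteins, read 3.38 and 4.00 at 24 h and 8.33, 8.24 and 8.32 at 85%. In ANS1, a putative cell surface protein, the arrays at 85% were themselves far apart (6.53, 8.82 and 8.95, against 2.75 and 3.32 at 24 h), and both arrays at 24 h were below the background percentile, so that no exact fold can be given. YNL277W-A and YDR042C, which carry only a locus name here, rose by 5.86 and 5.41 on the log2 scale. YNL146C-A also rose, from a mean of 3.33 at 24 h, which is below the background percentile, to 9.06 at 85%. Of the 298 probe sets that rose at least 4-fold, 54 had only a locus name, against 20 of the 274 that fell as much. Among all 5498 probe sets 508 had only a locus name. At 24 h 16 of the 298 were below the background percentile.

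PIR3, a glycosylated protein of the cell wall, and the hydrophilins SIP18 and GRE1, which protect cells from loss of water, made up the remainder of the 15 largest rises. PIR3 read 8.61 and 9.27 at 24 h, 13.02 and 13.00 at 20% and then 13.64, 13.59 and 13.54 at 85%. SIP18 read 8.82 and 9.66 at 24 h, 13.80 and 13.72 at 20% and then 13.48, 13.82 and 13.93 at 85%. Unlike MCH5, RDH54 and KCC4, these genes had covered most or all of their rise by 20%. GRE1 was between them, with 7.32 and 8.38 at 24 h, 10.45 and 10.49 at 20% and then 11.75, 12.74 and 12.84 at 85%.

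**Figure D1:**
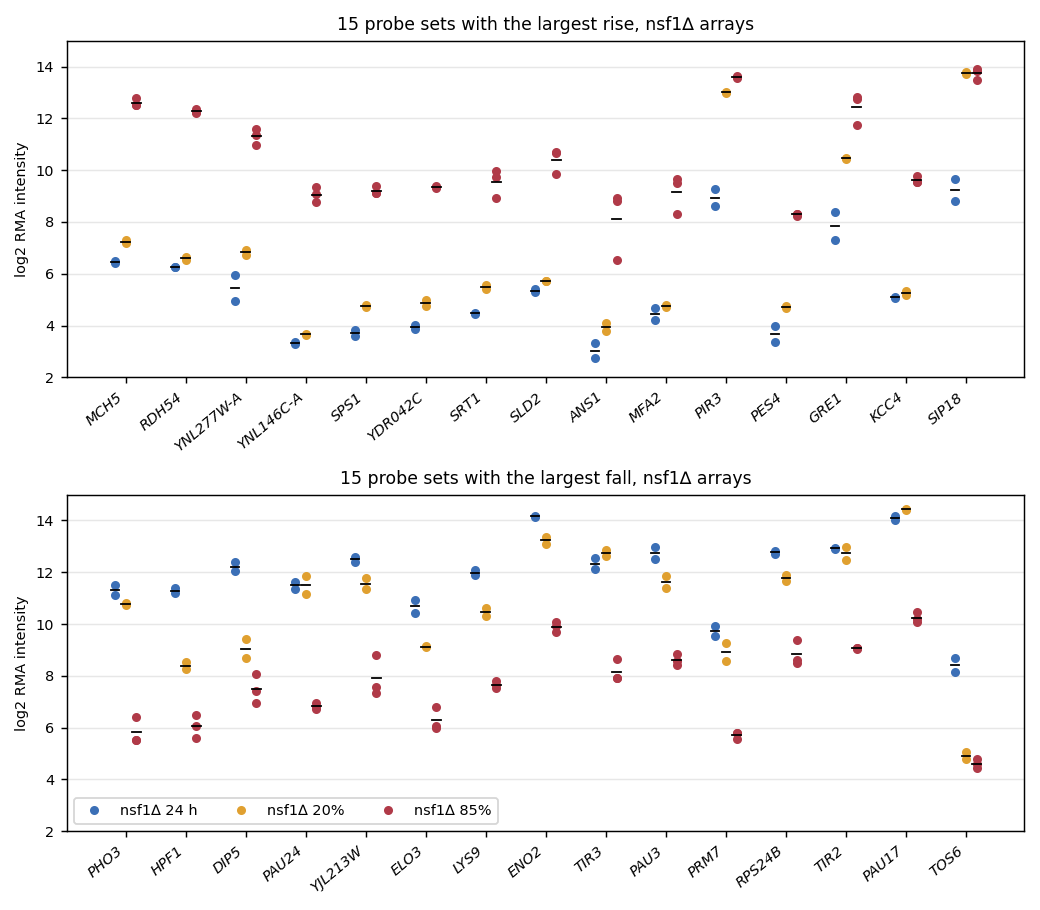
Log2 RMA intensity on each nsf1∆ array (points, coloured by stage; black bars are stage means) of the probe sets that rose most (15, top) and fell most (15, bottom) from 24 h to 85%. MCH5 stayed near its early level at 20% whereas PIR3 and SIP18 had already risen. The 30 probe sets were chosen among those whose arrays at 24 h and 85% do not overlap.

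The largest fall was that of PHO3, an acid phosphatase that releases thiamine from its phosphates outside the cell. PHO3 read 11.52 and 11.13 at 24 h, 10.81 and 10.72 at 20% and then 5.51, 5.54 and 6.41 at 85%, a 45.5-fold fall (log2 change -5.51, SE 0.24, limma adjusted p = 1.1e-09). HPF1, a mannoprotein known from wine for reducing protein haze, fell from 11.39 and 11.19 to 6.49, 5.61 and 6.07, and had reached 8.26 and 8.53 by 20%. DIP5, the permease of glutamate and aspartate, went from 12.06 and 12.38 to 8.67 and 9.41 at 20% and to 6.97, 7.41 and 8.06 at 85%. PHO3 thus fell late, DIP5 early, and HPF1 in both steps.

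Among the other large falls, 5 of the 15 were anaerobic mannoproteins (PAU24, TIR3, PAU3, TIR2 and PAU17), described with their family below. ENO2, the enolase that is abundant in fermenting cells, read 14.17 and 14.15 at 24 h and 9.70, 10.08 and 9.92 at 85%, a 19.1-fold fall. LYS9, of lysine synthesis, read 12.07 and 11.90 at 24 h and 7.65, 7.78 and 7.51 at 85%. ELO3, which elongates very long fatty acids, read 10.94 and 10.42 at 24 h and 6.81, 6.06 and 5.98 at 85%. In all 3 genes the stages were separated by more than 3 log2 units while arrays of a stage differed by less than 1. TOS6, a cell wall protein, fell from 8.69 and 8.16 to 4.79, 4.44 and 4.58 and was already at 4.79 and 5.05 at 20%. YJL213W, PRM7, a pheromone-regulated gene, and RPS24B, a ribosomal protein, fell by 4.58, 4.01 and 3.93 on the log2 scale.

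Genes for the use of carbon sources other than glucose rose. Of 18 genes of the glyoxylate cycle, gluconeogenesis and their transporters and regulators, 11 were higher and 2 lower at 85%, with a median change of 1.26. ADH2, the alcohol dehydrogenase that consumes ethanol, read 6.44 and 6.91 at 24 h, 9.67 and 9.49 at 20% and then 10.82, 11.16 and 10.96 at 85%, a 19.7-fold rise. PCK1, the key enzyme of gluconeogenesis, read 6.60 and 7.38 at 24 h, 7.82 and 7.95 at 20% and then 10.85, 11.15 and 11.32 at 85%. ADH2 had thus covered most of its rise by 20% and PCK1 had not. The glyoxylate cycle enzymes ICL1 (isocitrate lyase, 2.07) and MLS1 (malate synthase, 1.88), fructose bisphosphatase FBP1 (2.17), acetyl-CoA synthetase ACS1 (1.90) and the succinate and fumarate carrier SFC1 (2.67) rose as well, with log2 changes in brackets. CIT2, the peroxisomal citrate synthase, fell from 12.23 and 12.02 to 10.03, 9.79 and 9.98, and the lactate and pyruvate transporter JEN1 fell by 1.02. The transcription factors of this programme, CAT8 (log2 change 0.07), ADR1 (0.32) and SIP4 (0.03), did not pass the test.

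Glycolysis changed unevenly. Of 20 genes, 13 were lower and 2 higher, with a median change of -0.75, and 1 higher gene passed without replicate 1 at 24 h or replicates 2 or 3 at 85%. The falls were led by ENO2, PYK2 (a pyruvate kinase, log2 change -2.60), TDH3 (glyceraldehyde phosphate dehydrogenase, -2.57) and HXK2 (hexokinase, -2.34). PDC1, the main pyruvate decarboxylase, rose from 13.19 and 13.03 to 13.83, 13.83 and 13.77. The other isozymes ENO1 (-0.19), TDH1 (0.01), HXK1 (0.15) and GLK1 (0.12) did not pass the test, nor did ADH1 (0.00), the main alcohol dehydrogenase. Near-identical isozymes such as ENO1 and ENO2 can share probes, and how far each probe set reads its partner was not tested.

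Of 18 hexose transporters, sensors and relatives, 9 were higher and 3 lower, with a median change of 0.34, and 5 lay near background. GAL2, the galactose transporter, rose from 7.12 and 7.75 to 9.82, 9.69 and 9.99, and STL1, the glycerol symporter, from 5.93 and 6.37 to 8.55, 9.14 and 9.47. HXT1, a low affinity transporter induced at high glucose, fell from 11.28 and 11.04 to 9.62, 9.95 and 10.19. Without replicate 1 at 24 h, 5 transporters in place of 9 passed as higher.

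Of 11 glycerol genes 6 were higher and 2 lower. GPD1, GPP1 and GPP2 of glycerol synthesis rose moderately, by 0.92, 0.91 and 1.15 on the log2 scale. Their means at 20% (12.33, 11.54 and 11.88) were below those at 24 h (12.62, 11.82 and 12.26). DAK1, a dihydroxyacetone kinase, fell by 0.98. Of 21 trehalose and glycogen genes, 10 were higher and 5 lower. GIP2 and GAC1, which direct a protein phosphatase to glycogen synthase, rose by 3.03 (SE 0.30) and 2.23 (SE 0.41), with GIP2 at 7.14 and 8.27 at 24 h against 10.41, 10.80 and 11.01 at 85%. PGM1, a phosphoglucomutase, fell from 9.44 and 9.31 to 6.66, 6.64 and 6.45, most of it by 20% (7.05 and 7.21), and TPS3, of the trehalose synthase complex, fell by 2.21. Without replicate 1 at 24 h the count of higher genes in this list was 4.

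The mitochondrial lists were mixed in nsf1∆. Of 70 mitochondrial ribosomal proteins, 44 were higher and 8 lower, with a median change of 0.49 against 1.02 in M2, and without replicate 2 at 24 h the lower ones numbered 5. PET123, a protein of the small mitochondrial subunit, rose from 9.60 and 9.87 to 12.36, 12.14 and 12.18, and MRPL33, of the large subunit, by 2.05. RSM25, of the small subunit, fell from 9.49 and 9.44 to 8.60, 8.63 and 8.30. Of 23 respiratory chain genes, 11 were higher and 5 lower. QCR6 (log2 change 1.38) and QCR10 (1.11) of complex III and COX5B (1.19), the hypoxic form of a cytochrome oxidase subunit, led the rises. NDI1, COR1, QCR2, RIP1 and COX6 fell by 0.36 to 0.67, and these 5 lower genes did not pass without replicate 2 at 24 h. Without replicates 2 or 3 at 85% the lower genes numbered 1 and 3. ATP synthase showed 7 higher genes, led by ATP18 (1.31) and ATP19 (1.21), and 5 lower ones, led by ATP2 (-0.74), the catalytic beta subunit. These falls did not pass without replicate 2 at 24 h either, and without replicate 1 at 24 h the higher genes numbered 4.

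In the TCA cycle IDH1 and IDH2, both subunits of isocitrate dehydrogenase, rose by 1.48 and 1.46 and had first dipped, with IDH2 at 11.41 and 11.90 at 24 h, 10.50 and 10.78 at 20% and then 12.81, 13.19 and 13.33 at 85%. FUM1, fumarase, fell by 1.73. Over the 17 measured genes of the cycle 7 were higher and 4 lower, against 37% and 36% of all probe sets. The 7 became 3 without replicate 1 at 24 h, 4 without replicate 2 at 85% and 3 without replicate 3 at 85%. The 4 lower genes became 7 without replicate 1 at 24 h. Of 42 genes of peroxisomes and fatty acid oxidation, 22 were higher and 6 lower. The peroxisomal catalase CTA1 went from 9.15 and 10.44 to 11.79, 12.02 and 12.23, the carnitine carrier CRC1 from 9.14 and 10.18 to 12.41, 12.26 and 12.20, and the import receptor PEX5 rose by 2.20. In CTA1 and CRC1 the arrays at 24 h differed by more than 1 log2 unit, with replicate 2 the higher.

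The cytosolic translation machinery fell almost as a whole. Of 75 probe sets for large subunit ribosomal proteins 72 were lower, and the other 3 (RPL41A and one of a pair of probe sets each for RPL14B and RPL18B) did not pass. Of 53 for the small subunit 48 were lower. The median changes were -1.39 and -1.29. RPS24B read 12.84 and 12.69 at 24 h, 11.89 and 11.67 at 20% and then 9.37, 8.62 and 8.51 at 85%. RPS22A (log2 change -3.71), RPL9A (-3.26) and ASC1 (-3.25), which sits on the small subunit, fell as well. Most ribosomal proteins are encoded by gene pairs with near-identical sequences, so single members are uncertain, and RPS27A (0.27), RPS27B (-0.12) and RPS30A (0.03) did not pass the test.

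Of 20 cytosolic tRNA synthetases and their cofactor, 19 were lower, with a median change of -2.12. SES1, which charges serine tRNA, read 11.36 and 11.25 at 24 h, 10.33 and 10.40 at 20% and then 7.58, 7.51 and 7.76 at 85%, a 12.9-fold fall with little spread within a stage. CDC60 (leucine, -3.07) and GLN4 (glutamine, -2.76) also fell. MES1, which charges methionine tRNA, was the exception with a rise of 0.56 (limma adjusted p = 0.048), which did not pass when replicate 2 at 24 h (0.31, limma adjusted p = 0.355) or any of the arrays at 85% was left out. Among 34 initiation and elongation factors 26 were lower and 3 higher, with TEF4, a subunit of elongation factor 1, at -3.41 and DED1, an RNA helicase of initiation, up by 2.20 (SE 0.42).

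Ribosome biogenesis factors did not follow the ribosomal proteins. Of 80, 32 were higher and 21 lower, against 37% and 36% of all probe sets, with a median change of 0.20. NOP53 (1.97), SOF1 (1.49) and UTP9 (1.49) of ribosomal RNA processing rose, and UTP10 (-2.49), UTP22 (-1.98) and RRP5 (-1.81) of the same process fell. Among 24 genes of RNA polymerases I and III, the largest subunits RPA190 and RPA135 of polymerase I fell by 2.41 and 1.86, and the initiation factor RRN11 rose by 2.21 (SE 0.43). Without replicate 2 at 24 h the higher genes numbered 15 in place of 32 in the biogenesis list and 5 in place of 11 in the polymerase list, and without replicate 1 at 24 h the lower polymerase genes numbered 5 in place of 9.

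**Figure D2:**
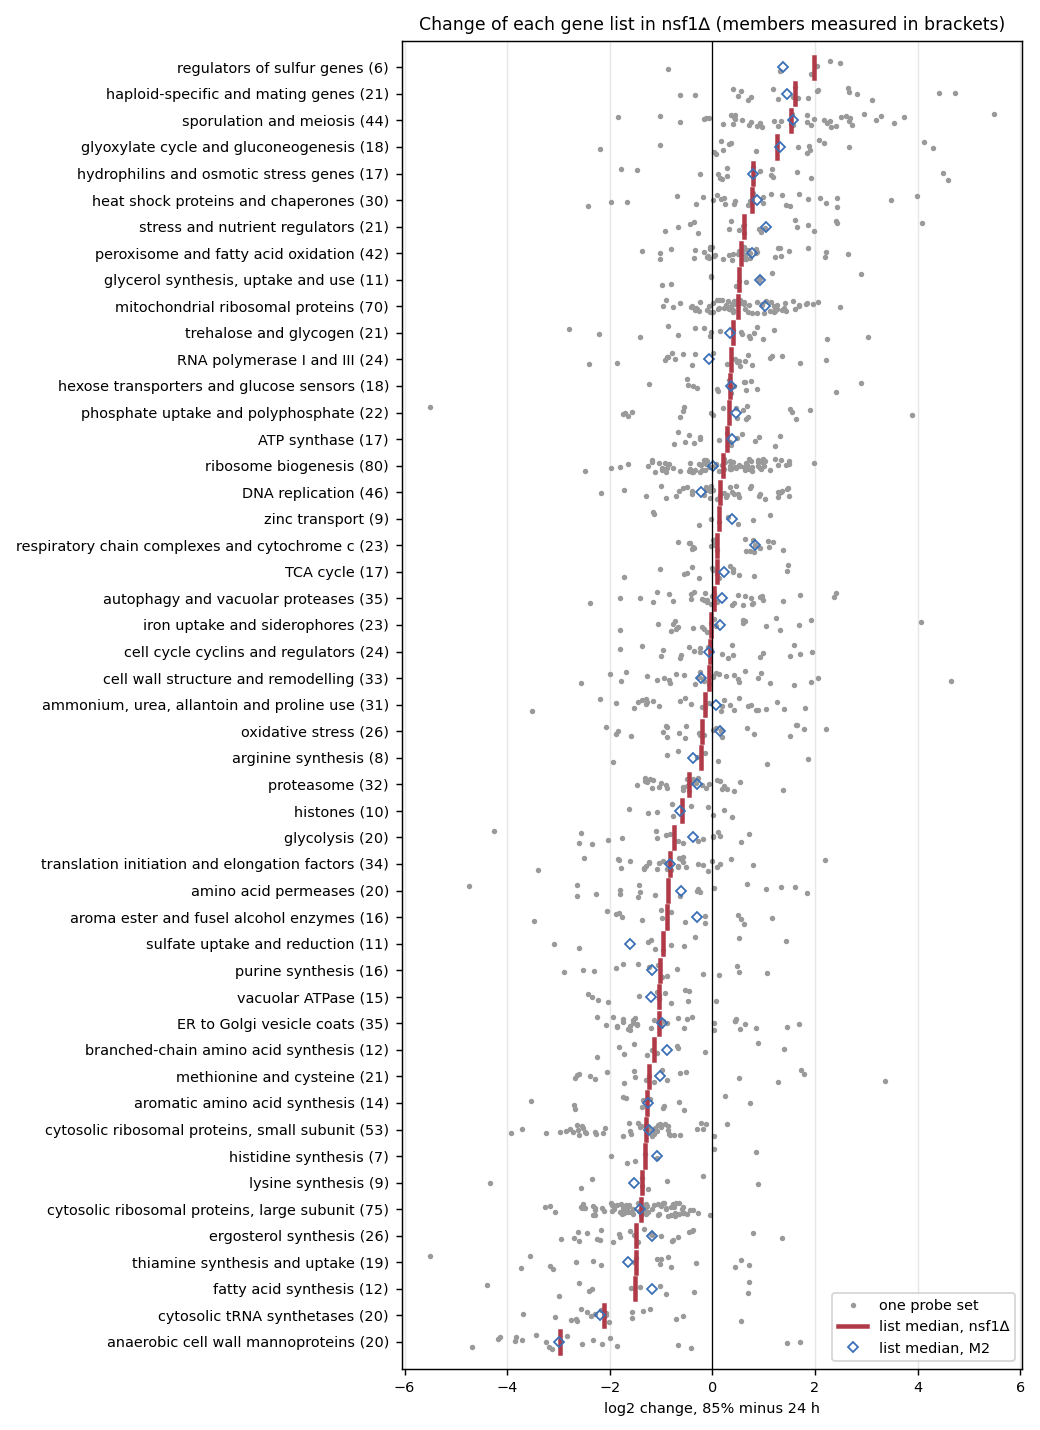
Log2 change from 24 h to 85% in nsf1∆ of every measured member of 49 gene lists (grey points), with the list median in nsf1∆ (red bar) and in M2 (blue diamond). Mannoproteins (median -2.98) and tRNA synthetases (-2.12) lie furthest below 0, and regulators of sulfur genes (1.98), haploid-specific genes (1.60) and sporulation genes (1.54) furthest above it.

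Most genes of amino acid synthesis fell. In lysine synthesis 7 of 9 genes were lower, with LYS9 first, LYS12 at -2.56 and LYS2 at -2.35, and LYS20, one of a pair of homocitrate synthases, was higher by 0.89 where its partner LYS21 was lower by 1.37. Of 14 aromatic amino acid genes 12 were lower, led by the transaminase ARO8, which read 11.44 and 11.41 at 24 h, 10.30 and 10.62 at 20% and then 7.83, 7.95 and 7.90 at 85%. Of 12 branched-chain genes 9 were lower, led by LEU2 (-2.25) and BAT1 (-1.82), while LEU3, the activator of leucine genes, rose by 1.40. Histidine synthesis had 5 of 7 genes lower and HIS4 higher by 0.86. Of 8 arginine genes 4 were lower, with ARG4 at -1.94, and CPA1 (carbamoyl phosphate synthetase) and ARG3 rose by 1.85 and 1.07. GCN4, the general activator of amino acid synthesis, read 12.21 and 12.45 at 24 h and 11.55, 11.60 and 11.81 at 85% (log2 change -0.68).

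Sulfur genes were examined because the study asked about NSF1 in sulfur metabolism. Of 11 genes of sulfate uptake and reduction, 8 were lower and 2 higher, with a median change of -0.97 (-1.61 in M2). MET3, ATP sulfurylase, read 12.34 and 11.56 at 24 h, 9.06 and 9.55 at 20% and then 9.31, 8.51 and 8.78 at 85%. MET17, which makes homocysteine from sulfide, fell by 2.61 in both steps, with 54.0% of the change by 20%. MET14 (adenylylsulfate kinase) fell from 12.20 and 11.67 to 10.996, 10.46 and 10.57, and MET5, a sulfite reductase subunit, from 11.41 and 10.89 to 10.11, 9.79 and 9.98.

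These last genes were lowest in between. MET14 read 9.43 and 9.61 at 20%, MET5 8.66 and 8.94, and MET10, the other sulfite reductase subunit, 9.57 and 9.80 against 11.32 and 11.10 before and 10.36, 9.92 and 10.01 after. MET16, PAPS reductase, was at 10.74 and 9.69, then at 8.12 and 8.10, and then at 9.97, 9.82 and 9.85, and both ends overlapped (log2 change -0.33, limma adjusted p = 0.27). The sulfate permease SUL2 rose from 9.21 and 8.58 to 10.54, 10.19 and 10.27, whereas the permease SUL1 was lower (log2 change -0.97, SE 0.30), although its arrays overlapped between the stages.

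The regulators of sulfur genes rose, with 5 of 6 higher. MET4, the central activator, went from 7.78 and 7.94 to 9.80, 9.84 and 10.05. MET31 rose by 2.49, MET28 by 2.28 and MET32 by 1.93, all of them DNA-binding or cofactor proteins of MET4, and MET30, which restrains MET4, by 1.33. CBF1 fell by 0.87. Of 21 further genes of methionine and cysteine 15 were lower, among them methionine synthase MET6 (-2.67), the cysteine transporter YCT1 (-2.64) and MHT1 (-2.61), and 5 were higher, led by MUP3, a low affinity methionine permease, which rose from 8.41 and 7.97 to 11.78, 11.38 and 11.50.

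Nitrogen genes moved both ways. GAP1, the general amino acid permease, read 11.27 and 12.05 at 24 h, 8.72 and 9.02 at 20% and then 7.81, 8.26 and 8.38 at 85%. GDH1 (glutamate dehydrogenase, -2.19) and PUT1 (proline oxidase, -1.87) fell, and DAL80 (1.80) and GAT1 (1.27), GATA factors of nitrogen catabolite repression, rose along with GDH3 (1.39). Of 31 genes in the list 10 were higher and 12 lower, near the shares of all probe sets. Of 20 permeases of amino acids and peptides 11 were lower, DIP5 and AGP1 (-2.65) first, and 5 were higher, among them BAP3 (1.84) and the peptide transporter PTR2 (1.61). ALP1, a permease of basic amino acids, fell by 2.64, but read 7.32 and 8.87 on both arrays at 24 h and so varied widely at the start.

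Purine synthesis had 11 of 16 genes lower, led by IMD4 (-2.89) and IMD2 (-2.30) of GMP synthesis and SHM2 (-2.53) of one-carbon supply. Thiamine synthesis and uptake had 15 of 19 lower and a median change of -1.48. THI13, of a family of near-identical genes for the pyrimidine part of the vitamin, read 13.48 and 13.64 at 24 h, 13.52 and 13.52 at 20% and then 10.42, 9.69 and 9.40 at 85%. SNO3 and SNZ3, which belong to pairs of vitamin B6 genes, fell by 3.55 and 3.17. The thiamine transporter THI7 (0.71) and the regulator THI2 (0.45) rose slightly, and neither passed without replicate 2 at 24 h.

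The anaerobic mannoproteins gave the largest median change of the 49 lists, at -2.98. Of 20 measured members 18 were lower and 2 higher. PAU24 read 11.64 and 11.35 at 24 h, 11.84 and 11.17 at 20% and then 6.93, 6.73 and 6.78 at 85%. TIR2 read 12.95 and 12.88, then 12.49 and 12.97, and then 9.09, 9.06 and 9.04. In these genes the arrays at 20% overlapped the 24 h level or lay close to it, and the median change of the list by 20% was 0.18. TIP1, a cell wall esterase of the same family, rose from 12.55 and 12.29 to 13.83, 13.87 and 13.93, and PAU21 rose by 1.71. The PAU genes are so alike that single members cannot be assigned with certainty, and 13 genes of the list were not among the probe sets used here.

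Most genes of sterol and fatty acid synthesis fell. Of 26 ergosterol genes 23 were lower, with HMG1, the rate-limiting reductase, at 12.18 and 12.28 at 24 h and 10.24, 8.62 and 8.95 at 85% (log2 change -2.96, SE 0.35), and ERG12 and ERG24 at -2.69 and -2.62. The transcription factors UPC2 (1.36, SE 0.34) and ECM22 (0.79), which activate sterol genes, were the 2 higher members. Of 12 genes of fatty acid synthesis 10 were lower, among them ELO3, PHS1 (-2.99), FAS1 (-2.59) and FAS2 (-1.59). OLE1, the only fatty acid desaturase of this yeast, rose from 13.01 and 13.07 to 13.68, 13.76 and 13.79, with a narrow spread.

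Of 15 subunits of the vacuolar ATPase, which acidifies the vacuole, 14 were lower (median change -1.04), with VPH1 at -2.42, VMA2 at -2.36 and VMA5 at -2.22. Of 35 genes of vesicle coats between ER and Golgi 25 were lower, led by ERV29 (-2.25) and COP1 (-2.08), and 8 were higher, led by RET2, the delta subunit of the COPI coat (1.70). Of 32 proteasome genes 19 were lower, by 1.47 at most in PRE9, and 4 higher (1 without replicate 1 at 24 h, 2 without replicate 1 at 85%), with RPN11, the deubiquitinase of the lid, up from 10.69 and 10.93 to 12.30, 12.09 and 12.20. Of 35 genes of autophagy and vacuolar proteases 14 were higher, with the mitophagy receptor ATG32 (2.37) and the aspartic protease YPS3 (2.40) first, and 9 lower, with the aminopeptidase APE1 (-2.39) and ATG5 (-1.79) first.

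In the cell wall list of 33 genes 10 were higher and 11 lower, a share near that of all probe sets. Glucan synthase changed isoform, with FKS1 down by 1.79 and GSC2, its counterpart in stress and sporulation, up from 9.90 and 10.08 to 11.93, 12.02 and 12.21. CIS3 (-2.56), a relative of PIR3, and CHS2 (-1.99), the chitin synthase of the septum, fell.

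Chaperones moved both ways. Of 30 genes 18 were higher and 5 lower. HSP26, a small heat shock protein, read 10.11 and 10.04 at 24 h, 13.28 and 13.49 at 20% and then 14.07, 14.05 and 14.10 at 85%, and so had risen early. HSP30, a membrane protein induced by ethanol, read 11.64 and 10.23, then 9.32 and 9.89, and then 14.41, 14.40 and 14.46, a dip followed by a late rise. SIS1, a cochaperone of the Hsp40 family, followed the same course and rose by 2.43. SSB2, an Hsp70 protein that acts on ribosomes, fell by 1.66. SSA2, a constitutive Hsp70, read 12.24 and 11.68 at 24 h, 8.87 and 8.74 at 20% and then 9.97, 9.94 and 10.04 at 85%. The inducible SSA3 (1.68) and SSA4 (1.52) rose, and HSP104 (0.44), the disaggregase, did not pass the test.

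Of 17 hydrophilins and osmotic stress genes 10 were higher, with GRE1, SIP18 and HAL1 (1.92) first, and DDR48 (-1.47) and GRE3 (-1.78) fell. Of 26 oxidative stress genes 7 were higher, led by CTA1, the glutathione peroxidase GPX1 (1.78) and the regulator YAP1 (1.65), and 11 lower, led by glutathione synthetase GSH2 (-2.08), GPX2 (-1.87) and thioredoxin TRX1 (-1.85). Among 21 stress and nutrient regulators other than NSF1, 15 were higher and 3 lower. XBP1, a repressor of cyclin genes in stress, rose from 6.48 and 7.31 to 10.89, 10.73 and 11.34, MIG1, the glucose repressor, by 2.41, MTH1, which blocks hexose transporter genes, by 2.42, and MSN4 by 1.97. MSN2 (-0.27), the paralogue of MSN4, did not pass the test.

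Cell cycle and replication genes moved both ways, as did all probe sets, of which 37% were higher and 36% lower. Of 24 cell cycle genes 8 were higher and 6 lower, of which 3 passed without replicate 1 at 24 h. The G1 cyclins parted, with CLN2 at 7.10 and 6.87 at 24 h and 5.20, 5.16 and 5.22 at 85%, and CLN1 at 5.52 and 5.24 at 24 h and 6.81, 7.22 and 7.24 at 85%. PDS1, the securin, rose by 1.94, CDC6, which loads the replicative helicase, by 1.58, and CDC28, the cell cycle kinase, fell by 1.37. Of 46 replication genes 18 were higher, among them ORC3 (1.496), the flap nuclease RAD27 (1.48) and the sliding clamp POL30 (1.34), and 10 were lower, among them the ribonucleotide reductase RNR2 (-2.17) and DNA polymerase alpha POL1 (-1.72). Of 10 histone genes 5 were lower, all of them core histones (HTA1, HTA2, HTB1, HTB2 and HHT2), and the linker histone HHO1 was higher by 0.39, though it did not pass without replicate 1 at 24 h or replicate 1 at 85%. HTB2 read 11.32 and 11.07 at 24 h, 8.35 and 8.54 at 20% and then 9.26, 9.58 and 9.84 at 85%, lowest in the middle, and the median change of the list was -1.01 by 20% and -0.60 by 85%.

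M2 is a diploid, in which genes specific to haploid cells are normally repressed and sporulation needs starvation. Of 21 haploid-specific and mating genes 18 were higher at 85% and 1 lower, with a median change of 1.60. MFA1, the other a-factor gene, read 6.51 and 7.03 at 24 h, 7.75 and 7.50 at 20% and then 11.08, 11.32 and 11.15 at 85%. The G protein subunits GPA1 (3.11) and STE4 (0.55), the scaffold STE5 (2.67), the endonuclease HO (2.06) and the alpha-factor genes MF(ALPHA)1 (2.82) and MF(ALPHA)2 (0.70) rose, so that genes of both mating types were among them. SAG1, the alpha-agglutinin, fell by 0.62, and STE6 (-0.34), the a-factor exporter, and AGA1 (0.39) did not pass. The summed linear intensity of the list was 1164 and 1448 at 24 h, 1879 and 1876 at 20% and then 5636, 6580 and 6189 at 85%. At 24 h 2 of the 21 members, STE18 and NEJ1, were below the background percentile. Without the members near background 16 of 19 were higher, a choice made after the values were seen. The ploidy of the cells at 85% was not measured.

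Of 44 sporulation and meiosis genes 35 were higher and 3 lower, with a median change of 1.54. SPO11, the nuclease that starts meiotic recombination, read 3.47 and 4.18 at 24 h, 5.42 and 5.23 at 20% and then 7.43, 7.43 and 7.24 at 85%. MND1 (3.73), REC8 (3.19) and DMC1 (2.95) of meiotic pairing and recombination rose as well, as did the regulators IME1 (1.53), IME2 (1.55) and NDT80 (0.87). SPO1 (-1.83), HOP1 (-1.03) and SPR3 (-0.64) fell. The summed linear intensity of the list was 3642 and 4141 at 24 h, 5884 and 5780 at 20% and then 10490, 10689 and 10363 at 85%. By their means 10 of the 44 members were near background at 24 h or at 85%, and 26 of the other 34 were higher.

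Metal, phosphate and aroma genes changed in part. FIT2, a mannoprotein that retains siderophores, rose from 5.79 and 6.86 through 8.66 and 8.69 to 10.88, 10.20 and 10.09, the heme oxygenase HMX1 by 1.69 and FIT3 by 1.92, while the reductases FRE1 (-1.79), FRE2 (-0.81) and FRE3 (-1.06) fell. In the iron list of 23 genes 9 were higher and 7 lower, near the shares of all probe sets. Of 9 zinc genes the uptake transporters ZRT1 (-1.16) and ZRT2 (-1.13) fell and the vacuolar exporter ZRT3 (1.12) and ZRG17 (0.79) rose. Of 22 phosphate genes 11 were higher (7 without replicate 1 at 24 h), led by the phosphatase PHM8, which went from 9.25 and 9.13 to 12.89, 13.10 and 13.26, and 8 were lower, with PHO3 first. Of 16 genes of esters and fusel alcohols, the aroma compounds of wine, 10 were lower. ATF2, an alcohol acetyltransferase, read 9.21 and 8.49 at 24 h and 5.34, 5.37 and 5.42 at 85%, ATF1 fell by 1.01, and IAH1, which hydrolyses acetate esters, rose by 1.16.

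The arrays at 20% place these changes in time. The probe sets that rose at least 4-fold had covered a median of 28.1% of their log2 change by 20% (quartiles 7.65% and 45.5%), and those that fell as much a median of 26.7% (quartiles 15.8% and 42.6%). These values are a description, since the same arrays at 24 h and 85% chose the probe sets. The mannoproteins, thiamine genes and ergosterol genes stayed near their early level until 20%, with median changes of 0.18, -0.01 and -0.17, and fell afterwards. Sulfate assimilation fell by a median of 1.41 by 20% and then rose by a median of 0.41. Chaperones were lower at 20% (median change -0.45) and then rose by 1.07.

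**Figure D3:**
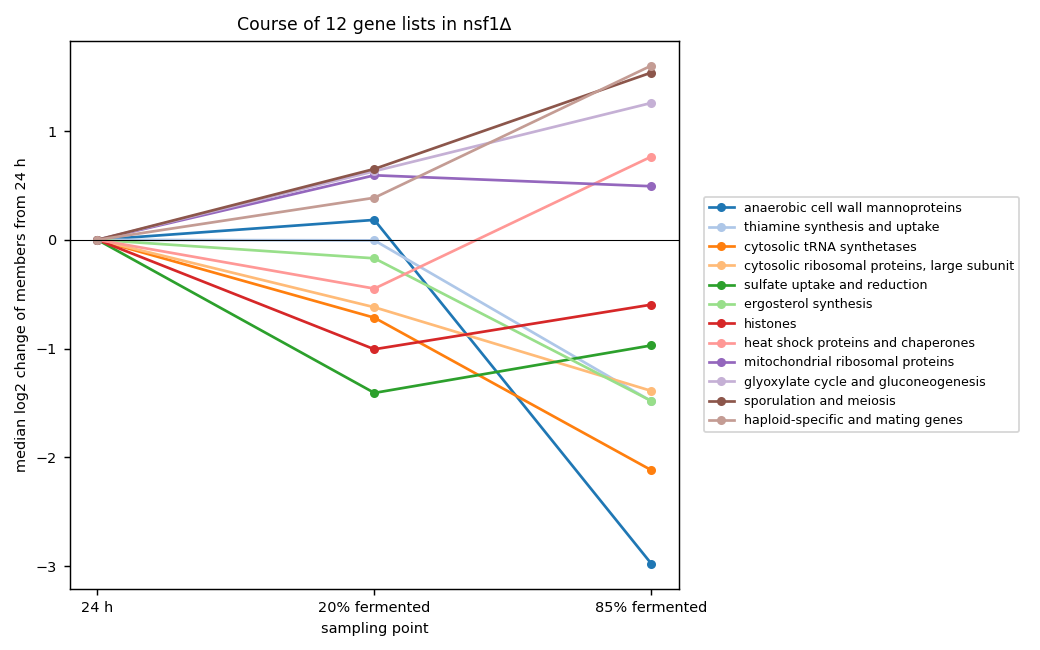
Median log2 change from 24 h of the members of 12 gene lists in nsf1∆ (y axis) at the 3 sampling points (x axis, not to scale in time). Mannoproteins were at 0.18 at 20% and at -2.98 at 85%, whereas sulfate assimilation (-1.41) and histones (-1.01) were lowest at 20%.

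M2 changed in much the same way over the same stages. In M2 2088 probe sets (38%) were higher at 85% and 1938 (35.2%) lower. Of the 4014 probe sets called in nsf1∆, 87.3% were also called in M2 in the same direction, which is 87.1% of the 4026 called in M2, and 21 were called in opposite directions. The changes of the strains had a correlation of 0.951 over probe sets, which are not independent. On the 314 probe sets (5.71%) that rose at least 4-fold in M2, the median intensity of the nsf1∆ arrays was 7.55 and 7.73 at 24 h, 8.42 and 8.43 at 20% and then 10.11, 10.27 and 10.37 at 85%, where the M2 arrays gave 7.55 and 7.55, 8.55 and 8.50, and 10.39, 10.17 and 10.44. Replicate 2 of nsf1∆ at 24 h was thus somewhat higher on these genes than the other 3 arrays of that hour.

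The test of the difference itself, the interaction of strain and stage, called 110 probe sets (2%), 50 with a more positive change in nsf1∆ (0.909%) and 60 with a more negative one (1.09%). At least 2-fold differences were seen for 36 (0.655%) and 33 (0.6%). All 110 kept their direction when each of the 10 arrays of the contrast was left out in turn, but only 8 passed every time (CDC9, TOS4, KCC4 and MKC7 on the positive side, PDR16, MIX17, IZH1 and YLL056C on the negative). Without replicate 2 of nsf1∆ at 24 h the counts of more positive and more negative probe sets were 6 and 5, and without replicate 1 they were 77 and 117. Without M2 at 24 h they were 20 and 25 (replicate 1) or 12 and 9 (replicate 2). Without M2 at 85% they were 24 and 20, 24 and 37, and 34 and 29 for replicates 1, 2 and 3. Without nsf1∆ at 85% they were 45 and 73, 29 and 23, and 32 and 53.

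Genes of the cell cycle and of chromosomes were among those with a more positive change in nsf1∆. TOS4, a transcription factor of the G1 to S transition, went in nsf1∆ from 6.35 and 6.16 to 5.86, 6.30 and 5.75 and in M2 from 7.22 and 7.33 to 4.98, 4.57 and 5.15 (difference of the log2 changes 2.08, SE 0.28, limma adjusted p = 0.0069). CBF2, a kinetochore protein, rose in nsf1∆ from 6.94 and 6.50 to 9.93, 9.32 and 9.68 and read 7.05 and 7.43 against 8.11, 7.53 and 8.49 in M2 (2.12, SE 0.35). KCC4 rose by 4.52 in nsf1∆ and by 2.58 in M2. The strains differed at both ends in these genes, with nsf1∆ below M2 at 24 h and above it at 85%.

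The cyclins CLN1, CLN2 and CLB1 (differences 1.58, 1.36 and 1.47) were 3 of 24 cell cycle genes with a more positive change, and POL30, CDC45 and CDC9 (1.33, 1.40 and 1.09) 3 of 46 replication genes, against 0.909% of all probe sets. Without replicate 2 of nsf1∆ at 24 h none of the 3 cell cycle genes passed in limma (adjusted p = 0.141, 0.102 and 0.0699 for CLN1, CLN2 and CLB1), and of the replication genes 1 did, CDC9. Without replicate 2 of M2 at 24 h 1 gene passed in each list. CDC9, DNA ligase, fell in M2 from 8.29 and 8.37 to 7.18, 7.14 and 6.98, whereas its log2 change of -0.13 in nsf1∆ did not pass. TDA6, a gene without an established role (2.17), GSY1, a glycogen synthase (1.98), and YMR030W-A (1.77) complete the 6 largest positive differences. GSY1 fell by 0.67 in nsf1∆ and by 2.65 in M2. Of the sulfate genes MET5 (1.62) and MET14 (1.21) and among coat proteins RET2 (0.98) differed in the same direction, none of which passed without replicate 2 of nsf1∆ at 24 h (limma adjusted p = 0.141, 0.231 and 0.146).

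On the negative side were several drug efflux genes. PDR5, the main multidrug exporter of the plasma membrane, read 10.18 and 10.54 at 24 h, 11.05 and 10.74 at 20% and then 9.49, 10.36 and 10.47 at 85% in nsf1∆, and 9.79 and 10.05, 11.41 and 11.37, and 11.65, 11.34 and 12.01 in M2 (difference -2.004, SE 0.37, limma adjusted p = 0.019). YOR1, another exporter, read 9.39 and 9.97 at 24 h and 9.28, 9.46 and 9.77 at 85% in nsf1∆, and 9.41 and 9.69 against 11.03, 10.92 and 11.52 in M2 (-1.79, SE 0.29). PDR16, a lipid transfer protein of the same regulon, rose by 0.82 in nsf1∆ and by 2.38 in M2 (-1.57, SE 0.19). For PDR5 and YOR1 the strains overlapped or lay close at 24 h and were apart at 85%.

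A list of 19 pleiotropic drug resistance genes was put together after these values were seen. In it 8 had a more negative change in nsf1∆, against 1.09% of all probe sets. Since these values guided the choice, the 8 genes are a description only. Without replicate 2 of nsf1∆ at 24 h 1 of them passed, PDR16, and without replicates 1 or 2 of M2 at 24 h 2 and 3 did. The number was 4 without replicates 1 or 3 of M2 at 85% or replicate 2 of nsf1∆ at 85%. Besides PDR5, YOR1 and PDR16 the 8 were the exporters SNQ2 (-1.45) and PDR10 (-0.92), the regulators PDR3 (-0.93) and STB5 (-1.30), and ICT1 (-1.03), and the list gets no test. The other large negative differences were those of SRT1 (-1.94), BSC4 (-1.87), a gene of unknown role, and HPA2 (-1.85), a histone acetyltransferase. SRT1 rose in both strains, by 5.07 in nsf1∆ and by 7.01 in M2. The differences of PDR5, YOR1 and SRT1 did not pass without replicate 2 of nsf1∆ at 24 h (limma adjusted p = 0.117, 0.0642 and 0.0637), and that of PDR16 did (limma adjusted p = 0.0326).

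**Figure D4:**
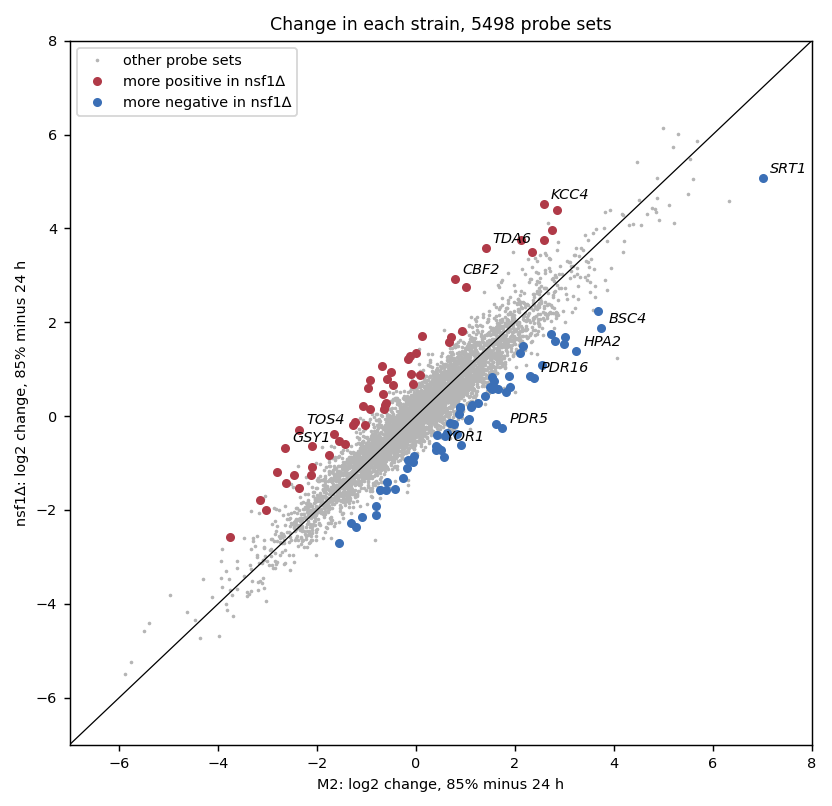
Log2 change from 24 h to 85% of each of 5498 probe sets in M2 (x axis) and nsf1∆ (y axis), with the diagonal of equal change. The 50 probe sets with a more positive change in nsf1∆ (red) and the 60 with a more negative one (blue) lie on both sides of a narrow band of all others.

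Respiratory chain genes also differed, with 5 of 23 more negative in nsf1∆ against 1.09% of all probe sets. These calls were lost when any 1 of several arrays was left out. None of the 5 passed in limma without replicate 2 of nsf1∆ at 24 h (adjusted p from 0.146 for QCR2 to 0.20 for COX6), and none did without replicate 2 of M2 at 24 h, replicates 2 or 3 of M2 at 85% or replicate 2 of nsf1∆ at 85%. The number of more negative genes in the list was 1 without replicate 1 of M2 at 24 h or at 85%, 2 without replicate 3 of nsf1∆ at 85%, and 9 without replicate 1 of nsf1∆ at 24 h. RIP1, the iron-sulfur protein of complex III, read 11.89 and 12.34 at 24 h and 11.93, 11.59 and 11.53 at 85% in nsf1∆, and 11.84 and 11.55 against 12.30, 12.25 and 12.29 in M2 (difference -1.02, SE 0.22, limma adjusted p = 0.0352). QCR2 (-0.99), CYC1 (-1.20), COX4 (-0.82) and COX6 (-0.83) were the others. At 85% every nsf1∆ array lay below every M2 array for these 5 genes, and at 24 h replicate 2 of nsf1∆ was the highest of the 4 arrays in each of them. HMX1 rose by 1.69 in nsf1∆ and by 3.02 in M2 (difference -1.33), and RME1, a repressor of meiosis, by 1.60 and 2.80.

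**Figure D5:**
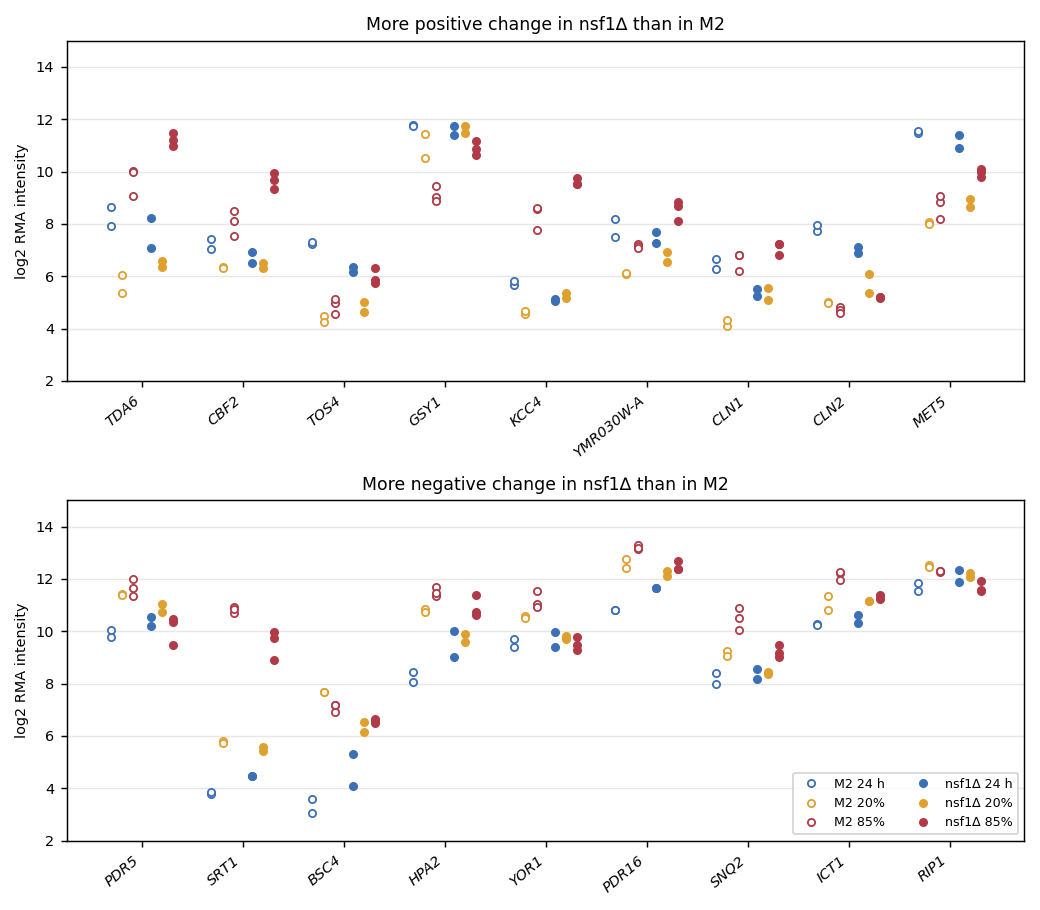
Log2 RMA intensity on every array of M2 (open points) and nsf1∆ (filled points) at 24 h, 20% and 85% for 9 genes with a more positive change in nsf1∆ (top) and 9 with a more negative one (bottom). At 85% PDR5 and YOR1 lay between 9.28 and 10.47 on the nsf1∆ arrays and above all of these on the M2 arrays, and TOS4 fell in M2 while it ended near its early level in nsf1∆.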

How the data were processed

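RNA of M2 and M2 nsf1∆ was hybridised to Affymetrix Yeast Genome 2.0 arrays, 14 in all. The authors deposited log2 values made by RMA, which corrects background, forces all arrays to 1 distribution by quantile normalization and summarises the probes of each probe set; the RMA version is not given in the sources used here. The depth of an array cannot be stated, and the number of arrays limits the precision. Of 10928 probe sets, 5498 named S. cerevisiae genes (5449 genes) and were used, 1746 named S. pombe genes, and 3470 had no gene name in the annotation given. A linear model with 6 group means was fitted to all 14 arrays with limma 3.58.1 in R 4.3.3, and p-values were adjusted over the 5498 probe sets by the Benjamini-Hochberg method with a threshold of 0.05. The change from 24 h to 85% in nsf1∆, that in M2 and their difference were tested.

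Named genes were drawn from the 15 largest rises and falls that passed and whose arrays do not overlap. NSF1 and the 6 largest differences between the strains in each direction were added. Each list gave up to 3 members in each direction (all members of lists of up to 12). Not every member of the short lists is named in the text. Other genes named, and the drug efflux list, were chosen after their values were seen. The members and all lists were chosen with earlier results of these data known, so list counts are descriptions. In simulated data of 5498 genes for nsf1∆ at 85% against 24 h, 50 genes each were changed by 0.5, 1, 1.5 and 2 on the log2 scale. Of these 36%, 84%, 94% and 100% were recovered, and 5 of the 162 calls were unchanged genes. Far fewer genes changed there than the 4014 called in the data. The adjusted threshold is therefore stricter there, and these shares do not give the recovery in this comparison. Alternatives were other filters, normalizations, array weights, a replicate block, the methods' t-test and leaving out each array. Sequences were not analysed here.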

Additional observations from a re-analysis of the deposited data

Results flagged for a closer look

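The change from 24 h to 85% differed between nsf1∆ and M2, by the limma test of the difference, for 110 probe sets. Values below are the log2 change in nsf1∆ minus that in M2, for the genes named in the report. The positive differences were TDA6 2.17, CBF2 2.12, TOS4 2.08, GSY1 1.98, KCC4 1.94, YMR030W-A 1.77, MET5 1.62, CLN1 1.58, CLN2 1.36, MET14 1.21 and RET2 0.98. The negative ones were PDR5 -2.004, SRT1 -1.94, BSC4 -1.87, HPA2 -1.85, YOR1 -1.79, PDR16 -1.57, HMX1 -1.33 and RIP1 -1.02. Of these 19 genes TOS4, KCC4 and PDR16 also passed in limma without replicate 2 of nsf1∆ at 24 h (adjusted p = 0.0378, 0.0497 and 0.0326). The other differences did not, for example TDA6 (1.60, adjusted p = 0.224), and each kept its direction.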

How the results depend on the processing

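The counts of 2035 higher and 1979 lower probe sets in nsf1∆ ranged from 1815 to 1995 and from 1797 to 1945 when each nsf1∆ array was left out. The methods' t-test gave 770 higher and 972 lower after adjustment and 1250 higher and 1407 lower at an unadjusted p. A 2-fold minimum left 1032 and 1016. The difference between the strains was less stable. Its 50 more positive and 60 more negative probe sets ranged from 6 to 77 and from 5 to 117 with 1 array left out, were 76 and 102 with array weights and 27 and 27 in a fit of the arrays of the contrast alone, 36 and 33 with a 2-fold minimum, and 29 and 58 without dim probe sets. With the replicate number as a block the stage counts were 1957 and 1988 and the differences 56 and 79. Deviations of same-numbered arrays correlated between -0.51 and 0.57. The highest value was that of replicate 3 of M2 and replicate 3 of nsf1∆ at 85%. In groups of 2 arrays the deviations mirror each other, so these values cannot settle whether the numbers pair the arrays. A shared batch of same-numbered arrays was not tested. No named change that passed the test reversed its direction under the alternatives run. Some that did not pass could reverse, as MET16 did without replicate 1 at 24 h. Its other array at 24 h read 9.69, below the 9.97, 9.82 and 9.85 at 85%. The cause of these shifts was not tested. Changes are relative to the array as a whole, and a loss of total RNA would not be seen. Probe sets of near-identical genes may read several genes. A planned description of promoter motifs was not run.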
